A study of Rattus norvegicus with 93 samples.

Results

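The nuclear genes for the subunits of oxidative phosphorylation were followed in rat bone marrow after topotecan, oxaliplatin or both. The set held 70 genes of the 7810 with 1 annotated symbol on the array. Sorted into complexes by symbol, 33 fell to complex I, 4 to complex II, 7 to complex III, 11 to complex IV and 15 to complex V. Ndufa4 is counted with complex I for its symbol, although its protein is now known as a subunit of complex IV. Members were taken by symbol alone: those beginning Nduf and a, b, c, s or v, Sdh and a to d, Uqcr, Cox and 4 to 8, or Atp5, with 1 probe set a gene, that of highest mean over all 93 arrays. The pattern matched 81 symbols, from which 6 Ndufaf and 4 Sdhaf assembly factors and the ATP synthase inhibitor Atp5if1 were left out. A further 7 probe sets carried 2 symbols each, among them those of Cox5a, Uqcrb, Ndufs5 and Ndufa10, and are not analysed here. Only Sdhd and Uqcrc2 had 2 probe sets.

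Complexes I and II pass electrons from NADH and succinate to coenzyme Q, complex III hands them to cytochrome c, and complex IV gives them to oxygen. Complexes I, III and IV pump protons, and complex V, the ATP synthase, uses the gradient to make ATP. Most subunits are nuclear-encoded, with core subunits that carry the redox centres or catalytic sites and accessory ones around them, while a few core subunits of complexes I, III, IV and V come from mitochondrial DNA and were not part of the set. In bone marrow, erythroid precursors depend on mitochondria for haem synthesis and lose them as they mature, and mature granulocytes rely largely on glycolysis.

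Male Sprague-Dawley rats aged 8 weeks received 2 intravenous infusions of 30 min each, 30 min apart, and marrow of the left femur was collected 1, 6 or 24 h after the second. The dose of topotecan, a topoisomerase I inhibitor, was 4.7 mg/kg. Oxaliplatin, which forms platinum adducts with DNA, was dosed at 15 mg/kg. Each group is written first/second infusion, with D5W for 5% dextrose in water and NaCl for 0.9% saline. The vehicle group NaCl/D5W served topotecan/D5W, topotecan/oxaliplatin and NaCl/oxaliplatin, and the vehicle group D5W/NaCl served D5W/topotecan, oxaliplatin/topotecan and oxaliplatin/NaCl, so the 3 comparisons of each set share their vehicle rats. Every group had 4 rats at a time, with 1 array each, except 3 rats in topotecan/D5W at 24 h, D5W/NaCl at 24 h and oxaliplatin/NaCl at 6 h. All values are log2 signals, and a change is the mean of the treated rats minus that of the time-matched vehicle rats. A member was counted as higher or lower when limma's adjusted p, by Benjamini-Hochberg over all 12532 probe sets, was under 0.01.

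The mean log2 signal of the members ranged from 6.06 for Cox8b to 13.3 for Atp5f1b. These levels place each probe set on the array and are not comparable between genes. Correlations between arrays ran from 0.831 to 0.995, and no 2 arrays were identical. Vehicle rat 24 (D5W/NaCl, 24 h) stood apart in these genes. Its signal was above the mean of rats 17 and 18 of its group for 58 of 70 members, by a median of 0.37 (range -0.46 to 1.00), while the median over all probe sets was 0.01. Counts of members lower at 24 h, and the values of members described there, are given with and without it where they rest on it. In 3 arrays, those of rat 52 (topotecan/oxaliplatin, 6 h) and rats 41 and 42 (oxaliplatin/NaCl, 24 h), genes of skeletal muscle were high.

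Promoters are shown for 1 member of each complex with a large change at 6 h, the time at which the most members were lower: Ndufs6, Sdha, Uqcrc1, Cox4i1 and Atp5pf. They are RefSeq sequences of build GRCr8, 250 bases before to 50 after the annotated start, written 5′ to 3′ on the strand of the gene. Capitals mark exact matches, on either strand, to the NRF1 motif, CCGGAAG (ETS, the family of GABPA), AAGGTCA (ESRRA), AAGATGG (YY1) and GGGCGG (SP1). Ndufs6 lies on the plus strand at chr1:31797150-31797449, Sdha on the plus strand at chr1:30764303-30764602, Uqcrc1 on the plus strand at chr8:118467973-118468272, Cox4i1 on the plus strand at chr19:65630133-65630432 and Atp5pf on the minus strand at chr11:37375052-37375351.
Ndufs6: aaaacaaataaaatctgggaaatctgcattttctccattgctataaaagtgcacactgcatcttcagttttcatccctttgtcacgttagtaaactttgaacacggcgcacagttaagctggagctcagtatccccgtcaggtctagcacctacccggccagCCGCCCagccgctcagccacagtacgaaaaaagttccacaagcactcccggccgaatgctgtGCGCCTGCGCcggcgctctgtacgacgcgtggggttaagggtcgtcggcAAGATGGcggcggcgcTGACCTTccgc
Sdha: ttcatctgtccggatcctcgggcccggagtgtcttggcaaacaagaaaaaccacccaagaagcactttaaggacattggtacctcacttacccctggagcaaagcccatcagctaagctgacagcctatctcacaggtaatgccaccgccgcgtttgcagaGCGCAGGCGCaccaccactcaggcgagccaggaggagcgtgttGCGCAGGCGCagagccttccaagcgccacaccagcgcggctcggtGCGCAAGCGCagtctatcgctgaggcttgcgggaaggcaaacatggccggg
Uqcrc1: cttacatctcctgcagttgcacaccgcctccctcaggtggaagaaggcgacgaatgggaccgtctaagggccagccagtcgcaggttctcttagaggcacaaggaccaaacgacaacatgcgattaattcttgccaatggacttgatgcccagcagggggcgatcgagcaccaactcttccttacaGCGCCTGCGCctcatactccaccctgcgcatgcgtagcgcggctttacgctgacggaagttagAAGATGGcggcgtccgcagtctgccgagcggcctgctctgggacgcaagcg
Cox4i1: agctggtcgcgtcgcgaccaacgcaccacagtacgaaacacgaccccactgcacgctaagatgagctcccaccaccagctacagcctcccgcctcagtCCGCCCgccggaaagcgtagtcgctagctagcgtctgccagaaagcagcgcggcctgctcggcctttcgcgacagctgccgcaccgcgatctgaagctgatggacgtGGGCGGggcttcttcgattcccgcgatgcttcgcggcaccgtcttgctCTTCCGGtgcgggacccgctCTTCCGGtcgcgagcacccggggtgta
Atp5pf: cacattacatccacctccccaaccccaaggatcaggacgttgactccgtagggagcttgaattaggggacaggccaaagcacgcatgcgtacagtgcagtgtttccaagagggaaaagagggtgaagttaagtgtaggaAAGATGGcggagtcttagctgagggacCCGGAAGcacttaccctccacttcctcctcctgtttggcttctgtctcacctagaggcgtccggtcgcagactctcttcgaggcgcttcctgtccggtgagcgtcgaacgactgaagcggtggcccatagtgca

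The NRF1 motif stood 26 bases before the start of Ndufs6 and 64 before that of Uqcrc1, and 3 copies lay in the Sdha promoter. Cox4i1 and Atp5pf held ETS motifs, 2 in Cox4i1 just after the start and 1 in Atp5pf 84 bases before it. Of the 70 members, 64 matched a promoter in the RefSeq table. The NRF1 motif was in 13 of them (20.3%) against 4.25% of all 33469 promoters, and the ETS motif in 20 (31.2%) against 8.75%. AAGATGG was in 17 (26.6%, all promoters 7.01%), AAGGTCA in 11 (17.2%, all 4.61%) and GGGCGG in 27 (42.2%, all 33.1%). NRF1 or ETS motifs together were in 32 (50%) against 12.2% of all promoters. A match is a run of letters and not a bound site. The median of the members' mean change at 6 h was -0.39 with the NRF1 motif and -0.35 without, and -0.34 with the ETS motif and -0.37 without.

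Over the 18 comparisons of a treatment with its vehicle, 659 of 1260 pairs of member and comparison were lower and 3 were higher, or 638 and 3 without vehicle rat 24. Of all probe sets, 0.0239% to 35.2% were lower and 0.136% to 25.9% higher in a single comparison. Changes were small in size, with 2 pairs past a fold of 2, Ndufs1 and Ndufs6 under oxaliplatin/topotecan at 24 h, where 8.55% of all probe sets fell by more than that. Without rat 24 Ndufs1 alone was past it. The set moved with time: at 1 h under topotecan given first, at 6 h under every treatment, and at 24 h mainly under oxaliplatin. The 1 h counts depended on how arrays were scaled. Ndufa1 and Cox8b passed the test in no comparison. In these bulk samples fewer cells of a type and less RNA per cell cannot be told apart. Transcripts were measured here, not proteins or respiration.

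**Figure D1:**
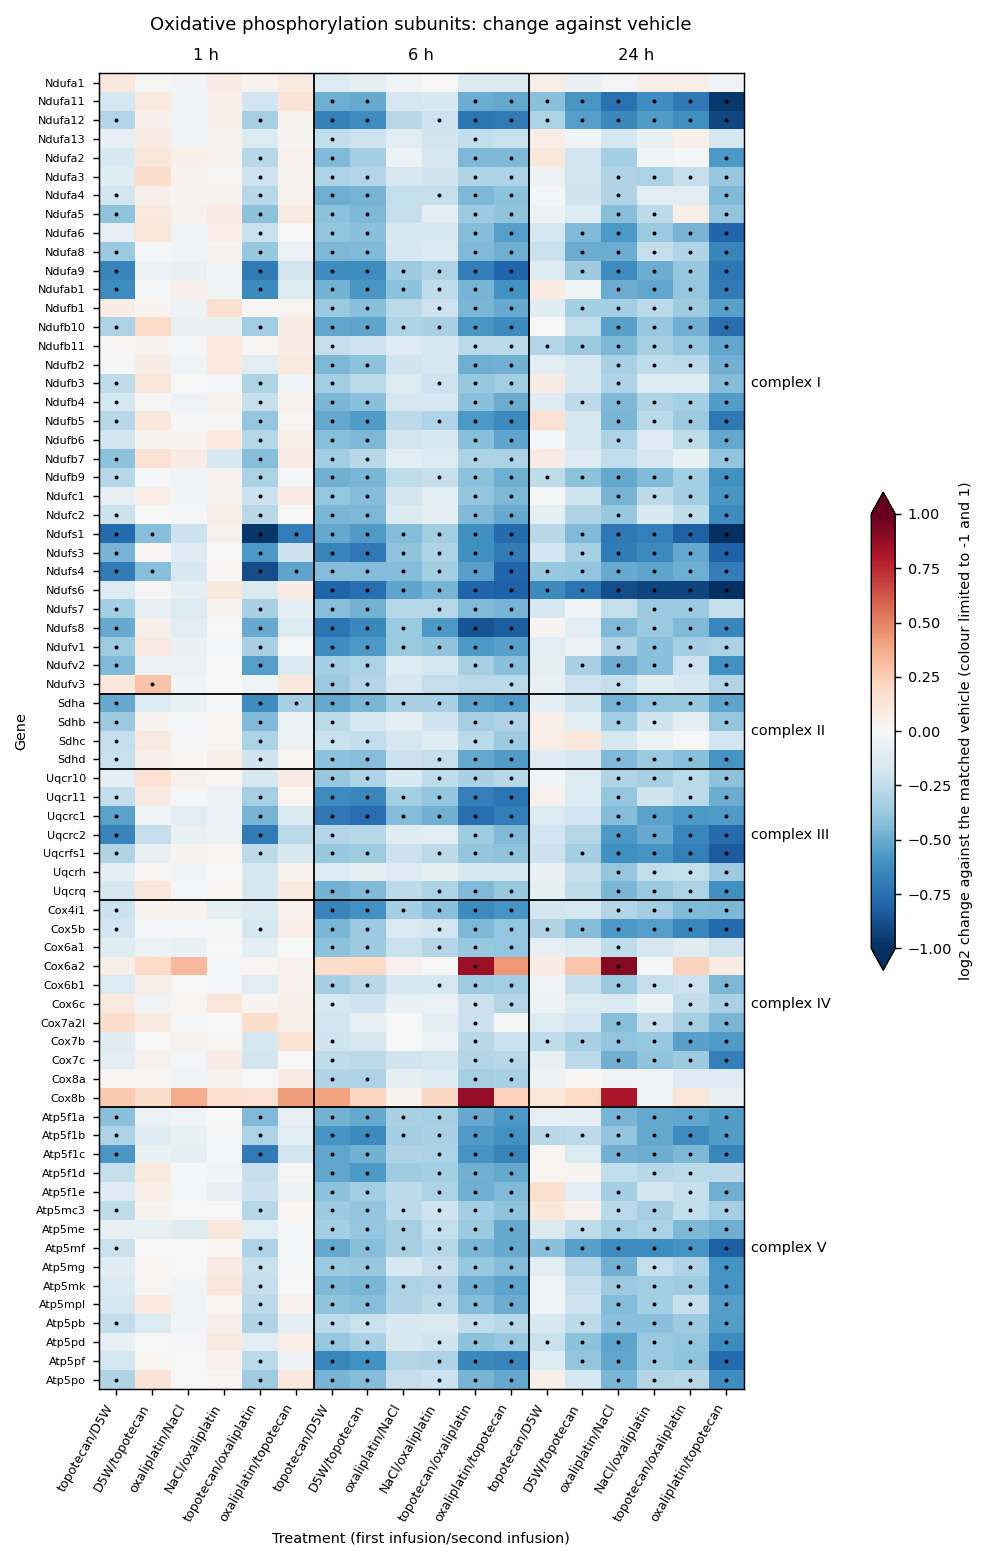
Log2 change from time-matched vehicle of the 70 subunit genes (rows, grouped by complex) in the 6 treatments at 1, 6 and 24 h (columns); blue is lower and red higher, and dots mark adjusted p under 0.01. The 6 h columns are blue in nearly all rows, the topotecan/D5W column at 24 h is pale, and the rows of Cox6a2 and Cox8b run against the rest.

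**Figure D2:**
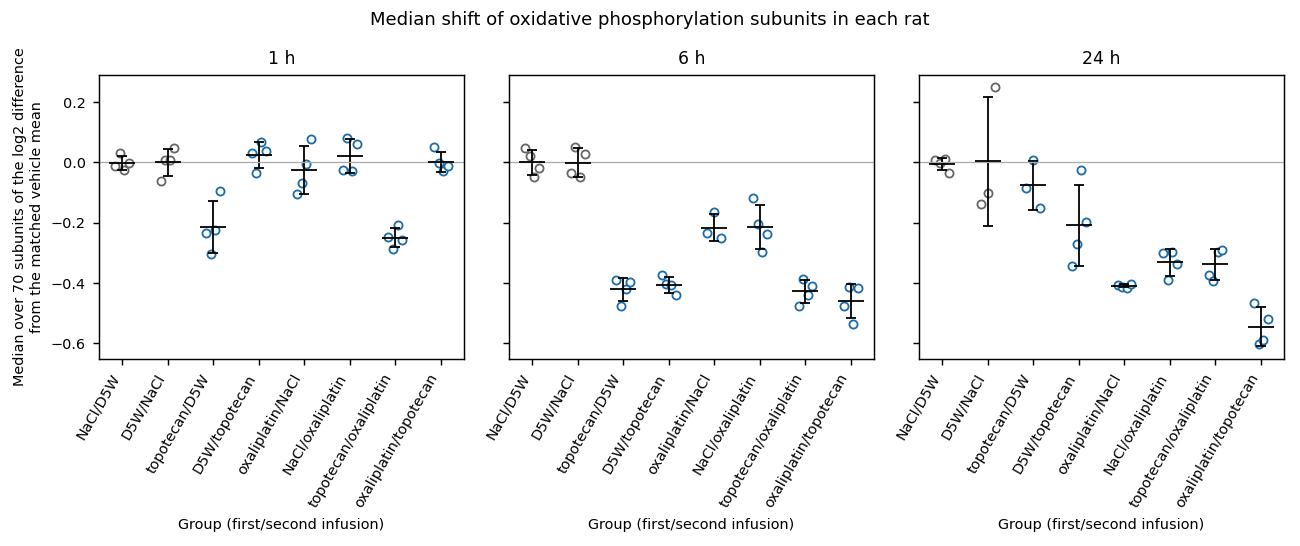
Median over the 70 members in each rat, as log2 signal minus the vehicle mean of that probe set and time; each point is 1 rat (vehicle grey, treated blue), and the lines are the group mean and SD. At 6 h the rats of all 6 treatments lie between -0.53 and -0.12, below the vehicle rats at -0.05 to 0.05, and vehicle rat 24 stands alone at 0.25 at 24 h.

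At 1 h after dosing, members were lower in the groups that had received topotecan as the first infusion, which ended 2 h before collection. In topotecan/D5W 37 of 70 members were lower and none higher, against 26% of all probe sets lower and 9.18% higher, with a median change of -0.20 over the members and -0.09 over all probe sets. In topotecan/oxaliplatin 45 were lower and none higher, against 32.9% of all probe sets lower and 9.77% higher, with medians of -0.26 and -0.14. With topotecan as the second infusion the counts were 1 higher and 2 lower in D5W/topotecan (7.67% and 19.5% of all probe sets) and 3 lower, none higher, in oxaliplatin/topotecan (27.6% and 7.21% of all). Oxaliplatin alone gave no limma call in either order: oxaliplatin/NaCl had 1 member lower at unadjusted p under 0.05 (8.16% of all probe sets) and NaCl/oxaliplatin 3 higher (3.51% of all). Of all probe sets, 0.654% were called lower and 0.575% higher in oxaliplatin/NaCl, and 0.0239% and 0.136% in NaCl/oxaliplatin. These 1 h counts depend on how arrays are scaled. The shares of all probe sets under centring are not given here, so the centred counts cannot be set against them. Centring each array on its median shifted the median of all probe sets by 0.13, 0.19 and 0.22 in topotecan/D5W, topotecan/oxaliplatin and oxaliplatin/topotecan, and gave 3 higher and 17 lower, 4 higher and 14 lower, and 24 higher and 2 lower members in these groups, and 3 higher and 2 lower in D5W/topotecan.

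Ndufs1, the largest iron-sulfur subunit of complex I, had the largest 1 h change. It read 8.84, 9.29, 9.27 and 9.22 in the 4 topotecan/oxaliplatin rats and 10.12, 10.16, 10.00 and 10.22 in the 4 NaCl/D5W rats. Every treated rat was below every vehicle rat, and the change was -0.97 ± 0.081 (SE, adjusted p = 7.95e-13), or 0.510 of the vehicle level. In topotecan/D5W it was -0.77, and it was also lower where topotecan came second, by -0.42 in D5W/topotecan and -0.69 in oxaliplatin/topotecan. Ndufs4, an accessory subunit of the same arm of the complex, changed by -0.70, -0.42, -0.89 and -0.53 in topotecan/D5W, D5W/topotecan, topotecan/oxaliplatin and oxaliplatin/topotecan, each past the threshold. Sdha, the flavoprotein that holds the succinate site of complex II, read 9.96, 10.14, 10.13 and 10.13 in topotecan/oxaliplatin and 10.66, 10.78, 10.58 and 10.80 in NaCl/D5W. The groups did not overlap, with a change of -0.62 ± 0.076 (SE, adjusted p = 8.41e-09).

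The redox core of complex I was among the lower members at this time. All 6 measured core subunits (Ndufv1, Ndufv2, Ndufs1, Ndufs3, Ndufs7 and Ndufs8) were lower in topotecan/D5W, with a median of -0.45, and in topotecan/oxaliplatin, with a median of -0.53. Of the 10 measured Ndufb subunits, accessory proteins of the membrane arm, 6 and 7 were lower, with medians of -0.22 and -0.30. The core proteins Uqcrc1 and Uqcrc2 of complex III and its Rieske iron-sulfur protein Uqcrfs1 were lower in both groups, with medians of -0.53 and -0.46. The second probe set of Uqcrc2 gave -0.40 (adjusted p = 0.010016) and -0.34 (adjusted p = 0.0250), short of the threshold where the chosen one gave -0.66 and -0.71. Of the F1 head of complex V, 3 of 5 members were lower in both groups, with Atp5f1c, the gamma subunit, at -0.58 and -0.70. Complex II was lower in 4 of 4 members in both. In complex IV 2 of 11 members were lower in topotecan/D5W, Cox4i1 and Cox5b. Neither was called with arrays centred on their medians (limma adjusted p = 0.267 and 0.374) or without rat 2. Centring also lost the topotecan/D5W calls of Sdhd (adjusted p = 0.149) and Uqcrfs1 (0.0146). It lost that of Atp5f1b in topotecan/oxaliplatin as well (0.103).

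The members higher at 1 h were few. Ndufv3, a small accessory subunit of complex I, was higher in D5W/topotecan, the only treatment in which a member passed the test upwards at that time. It read 10.33, 10.43, 10.35 and 10.35 against 10.01, 10.14, 10.06 and 10.12 in D5W/NaCl. Every treated rat was above every vehicle rat, and the change was 0.28. Cox7a2l, a protein related to a complex IV subunit that joins complexes into supercomplexes, had changes of 0.17 and 0.18 in topotecan/D5W and topotecan/oxaliplatin, which did not pass.

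The 1 h change was related to gene length. Genomic spans from the RefSeq annotation ranged up to 110495 bp for Ndufs4, and 13 members spanned over 15000 bp: Ndufa8, Ndufa9, Ndufa12, Ndufab1, Ndufs1, Ndufs4, Ndufv2, Sdha, Sdhb, Sdhc, Uqcrc2, Uqcrfs1 and Atp5f1c. All 13 of these were lower in topotecan/D5W and in topotecan/oxaliplatin, compared with 24 and 32 of the 57 shorter members. Their medians were -0.50 and -0.62, against -0.17 and -0.22 for the shorter ones. Both members lower in D5W/topotecan and all 3 lower in oxaliplatin/topotecan, Ndufs1, Ndufs4 and Sdha, were among the 13. Across the 70 members Spearman's rho of length with change was -0.51 in topotecan/D5W, -0.41 in D5W/topotecan, -0.49 in topotecan/oxaliplatin and -0.51 in oxaliplatin/topotecan. Without Ndufs4 it was -0.49, -0.39, -0.47 and -0.49. The rho was -0.28 in oxaliplatin/NaCl and -0.09 in NaCl/oxaliplatin. Over all 7787 genes with a length it was -0.41, -0.62, -0.46 and -0.60 in the 4 topotecan groups in the same order, and -0.35 in oxaliplatin/NaCl and -0.25 in NaCl/oxaliplatin. At 6 and 24 h the rho over the members was between -0.30 and -0.14, and over all genes between -0.135 and 0.0793. Genes are not independent replicates, and all points of a comparison share the same arrays.

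**Figure D3:**
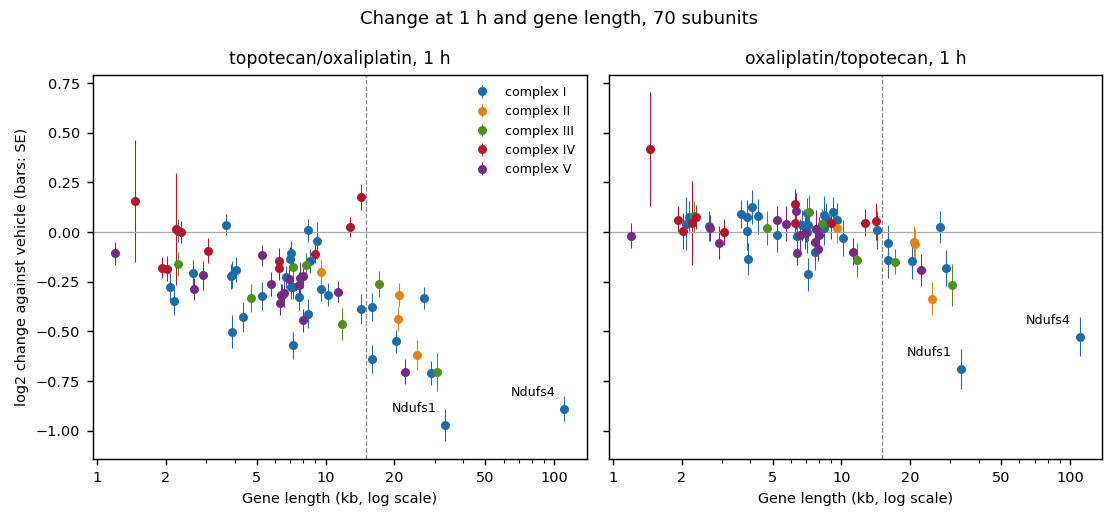
Log2 change from vehicle at 1 h (bars, SE) against genomic length (log axis, kb) of the 70 members in topotecan/oxaliplatin (left) and oxaliplatin/topotecan (right), coloured by complex, with a dashed line at the length that sets off the 13 long members. In both panels Ndufs1 and Ndufs4 lie lowest, at -0.97 and -0.89 on the left and -0.69 and -0.53 on the right, and on the right most shorter members lie near 0.

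At 6 h members of all 5 complexes were lower under all 6 treatments. The counts lower were 65 of 70 in topotecan/D5W (25.6% of all probe sets), 56 in D5W/topotecan (20.4%), 65 in topotecan/oxaliplatin (27.6%) and 63 in oxaliplatin/topotecan (27.5%), with member medians of -0.42, -0.42, -0.44 and -0.47. Oxaliplatin alone gave 19 lower in oxaliplatin/NaCl (7.25% of all) and 41 in NaCl/oxaliplatin (9.69%), with medians of -0.21 in both. The median over all probe sets lay between -0.09 and 0.02 in these comparisons. The single member higher was Cox6a2 in topotecan/oxaliplatin (17% of all probe sets were higher there). Of all probe sets 15.1% were higher in topotecan/D5W, 14.1% in D5W/topotecan, 14.2% in oxaliplatin/topotecan, 3.78% in oxaliplatin/NaCl and 5.54% in NaCl/oxaliplatin, against none of the members. The share of all probe sets lower in all 6 comparisons is not given here, and can be at most the 7.25% of oxaliplatin/NaCl. In 19 members the test was passed downwards in each of the 6 comparisons, which share vehicle rats as described. They were Ndufa9, Ndufab1, Ndufb10, Ndufs1, Ndufs3, Ndufs4, Ndufs6, Ndufs8 and Ndufv1 of complex I, Sdha, Uqcrc1, Uqcr11 and Cox4i1, and Atp5f1a, Atp5f1b, Atp5mc3, Atp5me, Atp5mf and Atp5mk of complex V. The oxaliplatin/NaCl count rested on single rats: without rat 15, 16, 22, 39 or 46 it was 12, 8, 9, 6 or 7, and the NaCl/oxaliplatin count was 26 without rat 81.

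In complex I the largest 6 h change on average over the treatments was that of Ndufs6, a zinc-binding accessory subunit of the peripheral arm whose promoter is printed above. It read 11.33, 11.53, 11.35 and 11.41 in topotecan/oxaliplatin and 12.25, 12.30, 12.08 and 12.19 in NaCl/D5W. The groups were apart, with a change of -0.80 ± 0.060 (SE, adjusted p = 6.59e-14). Its change was -0.80 in topotecan/D5W, -0.76 in D5W/topotecan and -0.81 in oxaliplatin/topotecan, and -0.53 and -0.47 under oxaliplatin alone. Ndufs4 read 9.81, 9.87, 9.97 and 9.88 in topotecan/oxaliplatin against 10.50, 10.44, 10.41 and 10.37. Again no treated rat reached the vehicle range, with a change of -0.55 ± 0.062 (SE, adjusted p = 1.38e-09). Ndufs8, a core iron-sulfur subunit, spanned -0.37 to -0.86 over the 6 treatments and Ndufv1, which binds NADH, -0.37 to -0.62.

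All 6 core subunits were lower in the 4 groups given topotecan, with medians of -0.57 to -0.62, and 4 and 5 of 6 in oxaliplatin/NaCl and NaCl/oxaliplatin. Among the Ndufb subunits 8 to 10 of 10 were lower with topotecan, 1 in oxaliplatin/NaCl and 5 in NaCl/oxaliplatin. Ndufa1, a small membrane subunit needed for assembly of the complex, had changes from -0.15 to -0.00 at this time and passed no test.

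Complex II had 4 members, 3 or 4 of them lower in each group given topotecan. Sdha read 10.28, 10.29, 10.36 and 10.34 in topotecan/oxaliplatin and 10.85, 10.72, 10.86 and 10.98 in NaCl/D5W, a change of -0.54 ± 0.076 (SE, adjusted p = 1.56e-07). Sdhb, the iron-sulfur subunit, read 11.67, 11.87, 11.75 and 11.82 against 12.10, 12.07, 12.14 and 12.17, a change of -0.34 ± 0.059 (SE, adjusted p = 9.20e-06). Neither gene had a treated rat in the vehicle range. The membrane anchors Sdhc and Sdhd ranged from -0.36 to -0.12 and from -0.56 to -0.22 over the treatments.

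In complex III, Uqcrc1, the core protein whose promoter is printed above, and Uqcr11, its smallest subunit, were lower under all 6 treatments, and Uqcr10, Uqcrq and Uqcrfs1 under 5 each. Uqcrc1 read 11.15, 11.27, 11.27 and 11.33 in topotecan/oxaliplatin against 12.23, 11.95, 11.91 and 11.94. The vehicle rats, 1 of them higher than the rest, all lay above the treated ones, with a change of -0.75 ± 0.083 (SE, adjusted p = 7.49e-10). Over the 6 treatments Uqcrc1 changed by -0.43 to -0.76 and Uqcr11 by -0.34 to -0.73, all past the threshold. The ranges were -0.38 to -0.15 for Uqcr10, -0.47 to -0.26 for Uqcrq and -0.41 to -0.21 for Uqcrfs1. Uqcrc2 changed by -0.44 to -0.11, with 3 calls. Uqcrh, the hinge protein, had changes of -0.16 to -0.09 with none past the threshold.

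In complex IV, Cox4i1, the nuclear subunit that binds ATP as a regulator, was the only member lower under all 6 treatments. It read 12.44, 12.39, 12.46 and 12.50 in topotecan/D5W and 13.26, 13.18, 13.01 and 12.97 in NaCl/D5W. The groups did not overlap, with a change of -0.66 ± 0.065 (SE, adjusted p = 7.14e-11). Cox5b, Cox6a1 and Cox6b1 were lower in 5 treatments each, with changes over the 6 of -0.46 to -0.15, -0.41 to -0.22 and -0.36 to -0.17. Cox6c, Cox7b and Cox7a2l reached at most -0.30, -0.28 and -0.22.

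In complex V both catalytic-head subunits Atp5f1a and Atp5f1b were lower under all 6 treatments. Atp5f1b, the beta subunit that makes ATP, read 12.87, 13.00, 12.84 and 13.00 in D5W/topotecan and 13.60, 13.58, 13.50 and 13.57 in D5W/NaCl. The treated rats lay well below, with a change of -0.64 ± 0.060 (SE, adjusted p = 5.05e-11). Atp5pf, the coupling factor of the stalk, read 11.47, 11.30, 11.36 and 11.47 in topotecan/D5W against 12.11, 12.16, 11.99 and 11.96, and changed by -0.65 ± 0.068 (SE, adjusted p = 2.40e-10). Atp5mf, a membrane subunit, read 11.93, 11.86, 11.95 and 12.00 against 12.53, 12.55, 12.33 and 12.40 in the same groups, a change of -0.52 ± 0.070 (SE, adjusted p = 8.27e-08). The smallest change of the complex in that comparison was that of Atp5pb, the stalk subunit b, at 12.84, 12.90, 12.95 and 12.90 against 13.15, 13.13, 13.19 and 13.17. Its change of -0.26 ± 0.053 (SE, adjusted p = 6.65e-05) still left the groups apart.

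The complexes differed in size of change more than in direction. At 6 h the medians of complexes I, II, III, IV and V were -0.45, -0.33, -0.38, -0.26 and -0.45 in topotecan/D5W, and -0.20, -0.22, -0.26, -0.13 and -0.29 in NaCl/oxaliplatin. Complex IV had the median nearest 0 in all 6 treatments at 6 h, and at 1 h in topotecan/D5W (-0.09) and topotecan/oxaliplatin (-0.09). The median of complex IV minus that of complex I, taken within each rat, lay between 0.05 and 0.25 in the treated rats at 6 h and between -0.04 and 0.05 in the vehicle rats. At 24 h vehicle rats of D5W/NaCl alone spanned -0.17 to 0.12, and no order of the complexes can be read there for the comparisons that use them. The difference was given no test. Part of it lay in the muscle isoforms: without Cox6a2 and Cox8b the median of complex IV at 6 h was -0.30 in topotecan/D5W and -0.17 in NaCl/oxaliplatin. At 1 h this median was -0.12 in topotecan/D5W and -0.11 in topotecan/oxaliplatin. Complex IV also had the highest median signal, 12.8, against 11.4 in complex I and 12.3 in complex V. Over 68 members, Spearman's rho of signal with change was 0.16 to 0.37 in the 6 treatments at 6 h. At 1 h it was 0.336 in topotecan/D5W and 0.435 in topotecan/oxaliplatin. The part of signal level was not tested.

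**Figure D4:**
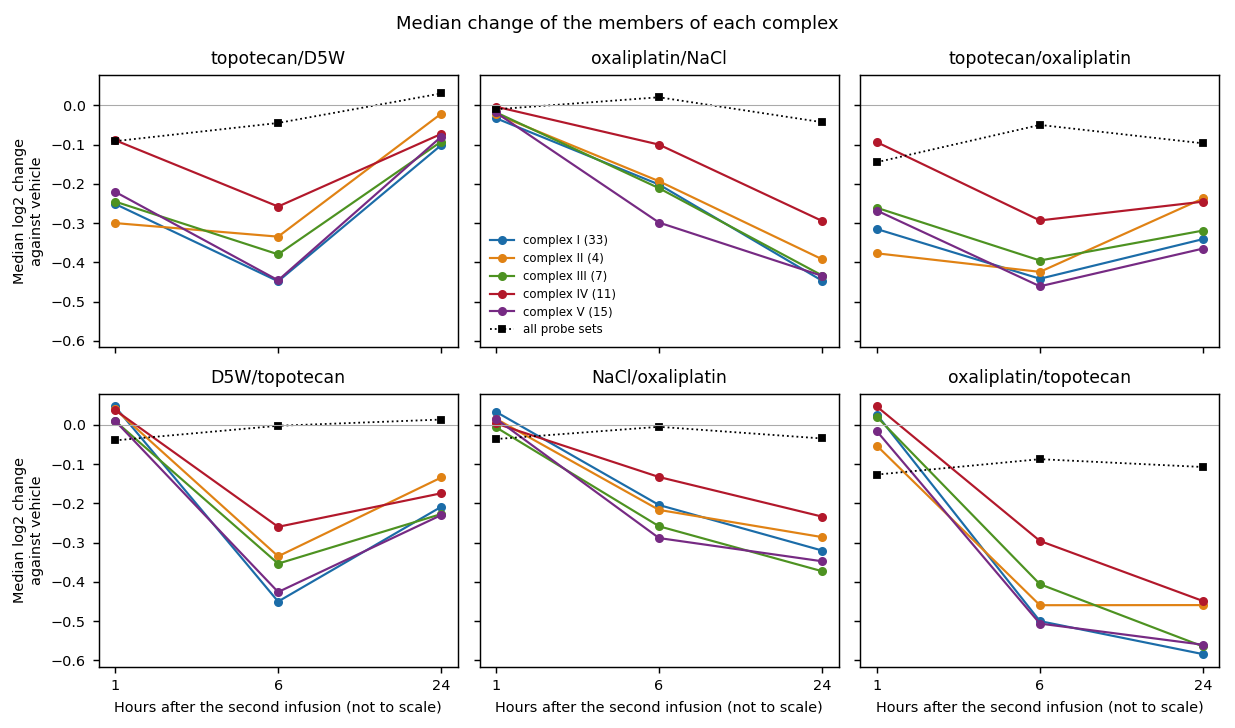
Median log2 change from vehicle of the members of each complex (coloured lines) and of all probe sets (dotted black) at 1, 6 and 24 h (axis not to scale), a panel a treatment, with the number of members in brackets. The 5 complexes run together, with complex IV nearest 0 at 6 h, and part by treatment at 24 h, when topotecan/D5W is back near 0 and the oxaliplatin groups stay low.

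At 24 h the treatments parted. In topotecan/D5W 11 of 70 members were lower, against 17.3% of all probe sets, with a median of -0.09, and in D5W/topotecan 23 (18.3% of all) with a median of -0.20. With oxaliplatin the counts were 59 in oxaliplatin/NaCl (26.4%), 53 in NaCl/oxaliplatin (30.2%), 56 in topotecan/oxaliplatin (35.2%) and 61 in oxaliplatin/topotecan (33.3%), with medians of -0.42, -0.33, -0.34 and -0.56. The share lower in topotecan/D5W, 15.7%, was below that of all probe sets. The 1 member higher was Cox6a2 in oxaliplatin/NaCl (19.6% of all probe sets higher). In the other 5 comparisons, in the order given, 16.1%, 18.1%, 24.9%, 25.9% and 21.8% of all probe sets were higher and none of the members. Without vehicle rat 24 the count was 12 in D5W/topotecan, 41 in oxaliplatin/NaCl and 55 in oxaliplatin/topotecan, with medians of -0.10, -0.31 and -0.42. The topotecan/D5W count was 20 without rat 35 and 7 without rat 36.

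The members lower in all 6 comparisons at 24 h numbered 11 and were those lower in topotecan/D5W: Ndufa11, Ndufa12, Ndufb9, Ndufb11, Ndufs4, Ndufs6, Cox5b, Cox7b, Atp5f1b, Atp5mf and Atp5pd. Without rat 24 they were 8, since Ndufb11, Ndufs4 and Cox7b no longer passed in each. The share of all probe sets lower in all 6 is not given here, and can be at most the 17.3% of topotecan/D5W. Ndufs6 again had the largest average change. It read 11.32, 11.16, 11.32 and 11.31 in topotecan/oxaliplatin and 12.18, 12.28, 12.22 and 12.11 in NaCl/D5W, with no overlap and a change of -0.92 ± 0.060 (SE, adjusted p = 3.67e-16). In topotecan/D5W its 3 rats read 11.57, 11.69 and 11.44, also below all vehicle rats, at -0.63, and in oxaliplatin/topotecan it was -1.05, or -0.98 without rat 24. Cox5b, a zinc-binding subunit of complex IV, read 12.40, 12.42, 12.53 and 12.45 in topotecan/oxaliplatin against 13.18, 13.10, 13.08 and 13.05. The groups were apart by more than their spread, with a change of -0.65 ± 0.054 (SE, adjusted p = 2.31e-13). Atp5f1b read 12.84, 13.07, 13.11 and 13.00 against 13.67, 13.65, 13.61 and 13.59 in the same groups, a change of -0.63 ± 0.057 (SE, adjusted p = 3.20e-12).

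Ndufs4 read 9.78, 9.71, 9.71 and 9.79 in NaCl/oxaliplatin and 10.27, 10.30, 10.30 and 10.22 in NaCl/D5W at 24 h. Every treated rat was lower, with a change of -0.53 ± 0.062 (SE, adjusted p = 2.71e-09). Ndufs1 fell most in oxaliplatin/topotecan, where it read 9.14, 9.06, 8.85 and 9.10 against 10.19, 10.24 and 10.36 in D5W/NaCl, a change of -1.23, or -1.18 without rat 24. All 3 core members of complex III were lower in each of the 4 oxaliplatin groups, with medians of -0.53 to -0.77 (-0.53 to -0.70 without rat 24). None was lower in topotecan/D5W, with a median of -0.19, and 1 in D5W/topotecan, with a median of -0.29 (2 and -0.31 without rat 24). Uqcrfs1 read 12.04, 11.89, 11.89 and 11.97 in oxaliplatin/topotecan against 12.80, 12.74 and 12.81, a change of -0.84 ± 0.067 (SE, adjusted p = 2.92e-13). Here rat 24, at 12.81, did not stand out from its group, and the change without it was -0.82.

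For other members of that comparison rat 24 did stand out. Atp5mf read 11.81, 11.73, 11.66 and 11.89 in oxaliplatin/topotecan and 12.41, 12.50 and, in rat 24, 12.87 in D5W/NaCl. All treated rats were still lower, with a change of -0.82 ± 0.087 (SE, adjusted p = 2.63e-10), or -0.68 without rat 24. Uqcr11 read 11.31, 11.11, 11.16 and 11.20 against 11.56, 11.59 and, in rat 24, 11.94, a change of -0.50 ± 0.092 (SE, adjusted p = 1.52e-05), or -0.37 without rat 24. In oxaliplatin/NaCl the Uqcr11 change of -0.39 was -0.26 without it and no longer passed (adjusted p = 0.0206). Sdhd read 11.34, 11.27, 11.34 and 11.42 against 11.92, 11.96 and 11.92, where the vehicle rats were alike and the change was -0.59 ± 0.081 (SE, adjusted p = 7.57e-08), or -0.60 without rat 24.

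Some members stayed near vehicle at 24 h. Cox8a, the ubiquitous form of the smallest complex IV subunit, Ndufa13, an accessory subunit of complex I, and Sdhc passed the test in no treatment, with or without rat 24, with changes of -0.13 to 0.01, -0.17 to 0.06 and -0.19 to 0.11. At 6 h Cox8a had been lower in the 4 groups given topotecan, by -0.33 to -0.30. Of the F1 subunits, 1 of 5 was lower in topotecan/D5W and in D5W/topotecan, with medians of 0.02 and -0.10, and 4 or 5 of 5 in the oxaliplatin groups, with medians of -0.40 to -0.55 (-0.07 in D5W/topotecan and -0.39 to -0.57 in the oxaliplatin groups without rat 24). Of the 6 core subunits of complex I, none was lower in topotecan/D5W, 3 in D5W/topotecan (1 without rat 24) and 5 or 6 in each oxaliplatin group (6 in each without rat 24).

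The change of an effect between times was tested within each treatment. From 1 to 6 h the effect moved down in 22 members in topotecan/D5W (10.5% of all probe sets), 48 in D5W/topotecan (13.9%), 9 in NaCl/oxaliplatin (2.98%) and 49 in oxaliplatin/topotecan (11.5%), with median differences of -0.23, -0.44, -0.26 and -0.46. In topotecan/oxaliplatin 17 moved down and 1, Ndufs4, up (9.36% and 17.4% of all), with a median of -0.17. In oxaliplatin/NaCl limma called none, with 23 lower at unadjusted p under 0.05 (9.72% of all), a median of -0.21, and 0.989% of all probe sets called lower and 0.391% higher. Ndufs6 moved most in topotecan/D5W, by -0.67, and in oxaliplatin/topotecan, by -0.88. The topotecan/D5W count was 14, 13 or 12 without rat 4, 28 or 32, the NaCl/oxaliplatin count 5 without rat 7, 74, 80, 81 or 82 and 14 without rat 75, and the oxaliplatin/NaCl count 2 without rat 21.

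From 1 to 24 h in topotecan/D5W the effect moved up in 19 members, 27.1% of them, and down in 2 (21.7% and 11.9% of all probe sets). The median difference of 0.10 over the members was below the 0.13 over all probe sets. The split was 11 up and 4 down with arrays centred on their medians. Ndufab1, the mitochondrial acyl carrier protein that is also a complex I subunit, showed it most. It read 10.78, 10.63, 10.53 and 10.74 at 1 h against 11.36, 11.32, 11.32 and 11.22 in vehicle, and 11.18, 11.27 and 11.00 at 24 h against 11.18, 11.06, 11.08 and 10.95. The treated rats were below every vehicle rat at 1 h and within or above their range at 24 h, a difference in effect of 0.72 ± 0.10 (SE, adjusted p = 5.28e-07). Ndufs6 and Ndufb11 were the 2 that moved down, by -0.50 and -0.30.

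In the other groups more members moved down than up from 1 to 24 h. The counts down were 14 in D5W/topotecan (12.1% of all), 35 in oxaliplatin/NaCl (15.2%), 46 in NaCl/oxaliplatin (22.1%) and 57 in oxaliplatin/topotecan (19.7%), with medians of -0.25, -0.39, -0.35 and -0.51. Topotecan/oxaliplatin had 7 up and 14 down (28.2% and 18.5%), the count down being near the share of all probe sets. It had 3 up and 19 down with centred arrays. Without rats 41 and 42, high in muscle genes, the oxaliplatin/NaCl count was 15. Without rat 24 the counts were 6, 16 and 45 in D5W/topotecan, oxaliplatin/NaCl and oxaliplatin/topotecan. The 6 in D5W/topotecan were a smaller share of the members than the 12.1% of all probe sets, which was taken with rat 24. The D5W/topotecan count was 22 without rat 95, and the oxaliplatin/NaCl count was 22, 23 or 21 without rat 13, 43 or 44.

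The order of infusion was compared as the difference of 2 effects, each against its own vehicle. At 1 h the effect was lower with topotecan first in 19 members for topotecan alone (7.33% of all probe sets) and in 14 for the combination (4.76%), with median differences of -0.25 and -0.27. Ndufa9, an accessory complex I subunit, differed by -0.60 and -0.53, Atp5f1c by -0.51 in both and Ndufab1 by -0.62 and -0.50. For oxaliplatin alone limma called no member in either direction (0% of all probe sets in each), with 4 lower at unadjusted p under 0.05 (2.82% of all). Topotecan given first had ended 2 h before collection and topotecan given second 1 h before, so order and time since dosing cannot be told apart. At 1 h the 2 groups given topotecan alone also lay in different columns of the code in the array labels. For them order and code column cannot be told apart either. At 6 and 24 h limma called no member, and at most 0.00798% of all probe sets in either direction in any of these tests. At unadjusted p under 0.05, 0, 0 and 1 members were higher at 6 h for topotecan, oxaliplatin and the combination (5.97% of all for the last). At 24 h 13 were higher for topotecan (1.33% of all), 1 higher and 3 lower for oxaliplatin (0.926% and 0.742%) and 39 higher for the combination (7.18%), with medians of 0.14, -0.08 and 0.22. These rest on the D5W/NaCl vehicle with rat 24, and with both vehicle groups pooled they were -0.01, 0.05 and 0.06.

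The combination was set against each agent given in the same position. Adding oxaliplatin after topotecan gave no limma call among members at 1 h, with 3 lower at unadjusted p under 0.05 (0% of all probe sets called, 10.8% lower at unadjusted p). It gave none at 6 h, with 1 higher at unadjusted p under 0.05 (1.16% of all called lower, 0.16% higher, and 4.22% higher at unadjusted p). At 24 h 40 members were lower than in topotecan/D5W (18% of all probe sets), with a median of -0.23. Adding oxaliplatin before topotecan gave no limma call at 1 h, with 5 lower at unadjusted p under 0.05 (0.184% of all called lower, 0.0559% higher, and 13.8% lower at unadjusted p). At 6 h it gave none, with 3 lower at unadjusted p under 0.05 (3.79% of all called lower, 0.303% higher, and 17% lower at unadjusted p). At 24 h 40 were lower (15.4%), with a median of -0.30. Ndufs1 led at 24 h, at -0.54 and -0.78. These counts fell to 19 without rat 35 and to 19 without rat 95.

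Topotecan was compared as the added agent in the same way. With topotecan first, 50 members were lower than in NaCl/oxaliplatin at 1 h (29.2% of all) and 31 at 6 h (12.6%), and at 24 h 2 were higher (7.44%) and 1 lower (8.43%), Ndufa5 and Ndufv2 up and Cox6c down. With topotecan second, 3 were lower than in oxaliplatin/NaCl at 1 h (22.4%), 17 at 6 h (11.1%) and 2 at 24 h (4.91%), Ndufs1 and Cox6a2. With centred arrays the 1 h split in that comparison was 21 higher and 1 lower, and after a second quantile normalization 1 higher and 1 lower. The 6 h counts were 17 without rat 75 for the first comparison, and for the second 2, 9, 9, 7 or 11 without rat 45, 46, 63, 69 or 70. The 3 at 1 h were 1 without rat 44 or 67, the 3 at 24 h were 1 without rat 53 or 84, and the 2 at 24 h were 1 without rat 41, 42, 65, 71 or 72.

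Topotecan and oxaliplatin alone were compared directly within each vehicle set, where 1 agent was the first infusion and the other the second, so agent and position, and with it the time since dosing, cannot be told apart. The groups of each pair also lay in different columns of the code in the array labels, which cannot be told apart from agent. In topotecan/D5W against NaCl/oxaliplatin 41 members were lower at 1 h (22.7% of all) and 23 at 6 h (10.3%), and 33 were higher at 24 h (12% of all), with medians of -0.23, -0.17 and 0.24. Ndufab1 was 0.60 higher and Atp5f1c 0.52 higher in topotecan/D5W at 24 h. The other pair did not show the lower values at 1 h. In D5W/topotecan against oxaliplatin/NaCl 1 member, Ndufv3, was higher at 1 h (4.6%), 2 were lower at 6 h (3.14%), Ndufa12 and Atp5f1b, and 9 were higher at 24 h (5.55%), with medians of 0.05, -0.18 and 0.16. With centred arrays none was lower at 6 h and 5 were higher at 24 h. The 33 were 14 without rat 35 and the 9 were 3 without rat 95. The 2 at 6 h were 0 without rat 45 and 1 without rat 46, 87, 88, 93 or 94.

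Cox6a2 and Cox8b are the heart and skeletal muscle isoforms of complex IV, with Cox6a1 and Cox8a as their general counterparts. Of the 3 calls upwards, 2 were of Cox6a2 and none of Cox8b. Cox6a2 read 6.58, 9.26, 6.46 and 6.87 in topotecan/oxaliplatin at 6 h and 6.61, 6.36, 6.41 and 6.37 in NaCl/D5W. The groups overlapped and 1 rat, number 52, carried the change of 0.85 ± 0.28 (SE, adjusted p = 0.00980). In oxaliplatin/NaCl at 24 h it read 7.83, 8.03, 6.85 and 6.56 against 6.31, 6.46 and 6.45, with rats 41 and 42 highest, a change of 0.91 ± 0.23 (SE, adjusted p = 8.38e-04). Cox8b read 8.63 in rat 52, and 7.90 and 7.62 in rats 41 and 42, and passed no test. Without these 3 arrays the changes of Cox6a2 were 0.20 (adjusted p = 0.176) and 0.30 (adjusted p = 0.237).

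The same arrays were high in genes of skeletal muscle. The median of 15 measured muscle genes of 17 listed, such as Acta1 and Ckm, stood above its median over all arrays by 4.13 in rat 52 and by 3.36 and 2.97 in rats 41 and 42, and at most 1.91 above it in the other 90 arrays. Over 93 arrays, which hold all treatments, Pearson's r of this median was 0.86 with Cox6a2 and 0.86 with Cox8b (Spearman's rho 0.50 for both), and -0.16 with Cox6a1 and -0.11 with Cox8a. Without the 3 arrays it was 0.65 with Cox6a2 and 0.61 with Cox8b. With these arrays removed, 65 members were lower and none higher in topotecan/oxaliplatin at 6 h, with a median of -0.45. The 24 h count in oxaliplatin/NaCl was then 48 lower and none higher, with a median of -0.41.

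**Figure D5:**
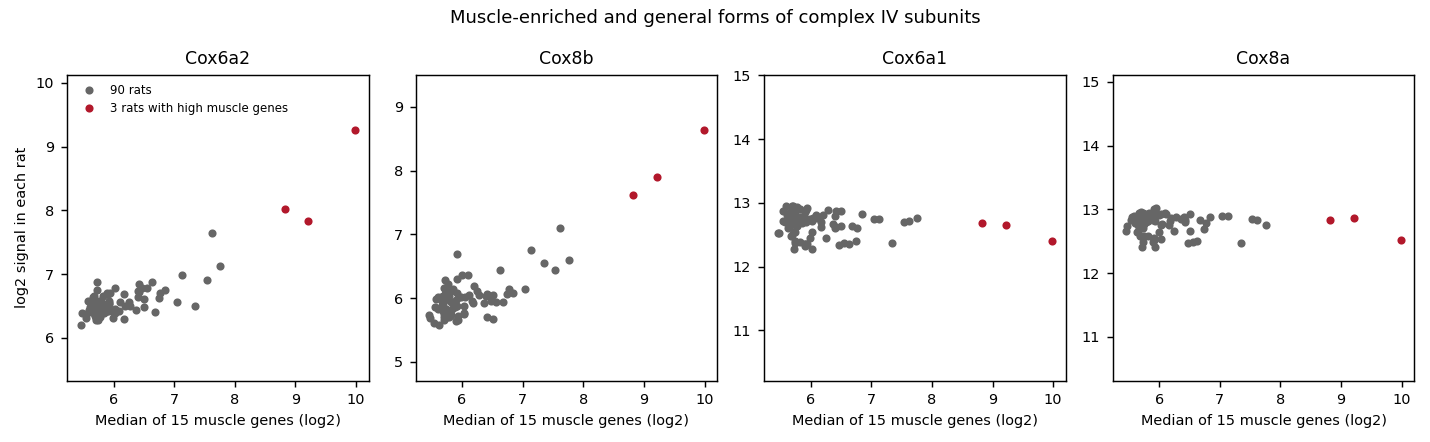
Log2 signal of the muscle isoforms Cox6a2 and Cox8b and their general counterparts Cox6a1 and Cox8a against the median log2 signal of 15 skeletal muscle genes, 1 point for each of the 93 rats, with rats 52, 41 and 42 in red. For Cox6a2 and Cox8b these 3 lie at the upper right, above the other 90 rats, in which Cox6a2 spans 6.21 to 7.65 and Cox8b 5.58 to 7.11, and for Cox6a1 and Cox8a they lie within the range of the others.

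Other genes of the respiratory chain were read from lists of symbols, of which Coq10b, Ndufaf4, Sdhaf1, Cs, Tfam, Gabpa and Yy1 are named here after their values were seen. Of 12 measured electron carriers and coenzyme Q genes, 7 or 8 were lower and 1 higher at 6 h in each group given topotecan. Of all probe sets 20.4% to 27.6% were lower and 14.1% to 17% higher there. Coq3, a methyltransferase of coenzyme Q synthesis, was lower in 16 of 18 comparisons, at -1.41 in topotecan/D5W at 6 h and -1.99 in oxaliplatin/topotecan at 24 h, beyond the range of the 70 subunits. Cyc1, the cytochrome c1 of complex III, which the symbol rule does not reach, was lower in 13, with -0.56 in topotecan/D5W at 6 h. Coq10b, a coenzyme Q binding protein, was higher in 7 comparisons.

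Assembly factors insert cofactors and join subunits into the complexes. Of 10 measured for complex I, 7 and 8 were lower at 1 h in topotecan/D5W and topotecan/oxaliplatin (26% and 32.9% of all probe sets). At 6 h 6 to 8 were lower in the groups given topotecan (20.4% to 27.6% of all). At 24 h the counts were 7 in oxaliplatin/NaCl (26.4%), 7 in NaCl/oxaliplatin (30.2%), 5 in topotecan/oxaliplatin (35.2%) and 9 in oxaliplatin/topotecan (33.3%). Without rat 24 the 24 h counts were 4 in oxaliplatin/NaCl and 6 in oxaliplatin/topotecan. None of them was lower at 24 h in topotecan/D5W or D5W/topotecan (17.3% and 18.3% of all), and Ndufaf4 was higher in topotecan/D5W, at 0.48. Nubpl, which delivers iron-sulfur clusters to complex I, was lower in 12 comparisons, with -0.96 in topotecan/oxaliplatin at 6 h. Of 22 measured for complexes II to V, 6 to 9 were lower at 6 h with topotecan (20.4% to 27.6% of all probe sets). At 24 h 16 were lower in oxaliplatin/topotecan (33.3% of all), or 11 without rat 24. Lrpprc, which stabilises mitochondrial transcripts, was lower in 13 comparisons, with -1.33 in topotecan/oxaliplatin at 1 h. Sdhaf1, an assembly factor of complex II, was higher in 6.

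The citric acid cycle, which feeds both entry points of the chain, had 11 to 13 of 15 measured genes lower at 6 h with topotecan (20.4% to 27.6% of all probe sets). With oxaliplatin alone 3 and 5 were lower at 6 h in oxaliplatin/NaCl and NaCl/oxaliplatin (7.25% and 9.69% of all). At 24 h 7 to 13 were lower (17.3% to 35.2% of all). Cs, citrate synthase, was lower in 15 of 18 comparisons and Idh3g, a subunit of the NAD-linked isocitrate dehydrogenase, in 14. In topotecan/D5W at 24 h 8 of 15 were lower, where 11 of 70 subunits were. Glycolysis had no common direction: of 19 measured genes 4 were higher and 4 lower in topotecan/D5W at 6 h (15.1% and 25.6% of all probe sets). In oxaliplatin/NaCl at 24 h 5 were higher and 3 lower (19.6% and 26.4% of all), or 3 and 3 without rat 24. These counts were near the shares of all probe sets. Slc2a3, a glucose transporter, was higher in 11 comparisons and Hk1, a hexokinase, lower in 16.

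Among 13 measured regulators of mitochondrial genes, 8 were lower at 6 h in topotecan/D5W (25.6% of all probe sets), 5 in D5W/topotecan (20.4%), 8 in topotecan/oxaliplatin (27.6%) and 6 in oxaliplatin/topotecan (27.5%). In oxaliplatin/NaCl and NaCl/oxaliplatin 1 each was lower, near the shares of all probe sets (7.25% and 9.69%). Nrf1, the factor whose motif is marked in the promoters, was lower in 14 of 18 comparisons, at -1.45 and -1.56 at 1 h in D5W/topotecan and oxaliplatin/topotecan, where 2 and 3 members were lower. Tfam, which packages and transcribes mitochondrial DNA, was lower in 13, with -0.48 at 6 h in topotecan/D5W, where its 24 h change of -0.16 did not pass. Gabpa was lower in 5 and Yy1 in 5. Polg2, the accessory subunit of the mitochondrial DNA polymerase, was higher in 7, at 1.33 in topotecan/D5W at 1 h. Their part in the subunit changes was not tested.

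Markers of marrow cell types moved with the treatments and did not follow the subunits in every group. Of 10 measured erythroid markers of 14 listed, 9 were lower in all 6 treatments at 24 h (17.3% to 35.2% of all probe sets lower). The median change was -2.15 in topotecan/D5W, where the subunits had -0.09, and -1.51 in oxaliplatin/NaCl, where the subunits had -0.42. The median signal of the list was 12.96 to 13.46 in vehicle rats, 12.18 to 13.17 in treated rats at 6 h and 9.42 to 11.60 in treated rats at 24 h. At 1 h, when 37 and 45 subunits were lower, the erythroid list had 2 lower in topotecan/D5W (26% of all probe sets). In topotecan/oxaliplatin it had 1 higher and 2 lower (9.77% and 32.9% of all). The neutrophil list (8 of 9 measured) was at 11.32 to 12.15 and 11.62 to 12.03 in the rats of these groups against 10.61 to 11.12 in NaCl/D5W. At 24 h 7 to 9 of 9 macrophage markers and 5 to 9 of 10 bone and stroma markers were higher in each treatment (16.1% to 25.9% of all probe sets higher). The lowest macrophage count was 6 without rat 24. The part of cell composition in the subunit changes was not tested.

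Arrays also fell into 2 sets by animal number within each group, with 1 or 2 rats a group in each. Within a set, the member median was below 0 for every treatment at 6 h and at 24 h. The 6 h medians ran from -0.46 to -0.20. At 24 h they ran from -0.42 to -0.07 where rat 24 was not the vehicle, and were -0.38, -0.66 and -0.79 in D5W/topotecan, oxaliplatin/NaCl and oxaliplatin/topotecan in the set where rat 24 was the only vehicle. At 1 h the median was -0.26 and -0.13 in topotecan/D5W and -0.28 and -0.23 in topotecan/oxaliplatin. The medians over all probe sets in these sets were -0.16 and -0.03, and -0.21 and -0.09. At 1 and 6 h 4 of the 6 treatments lay in other columns of the array code than their vehicle. At 24 h this held in part. What the code stands for is not given in the sources used here. There treatment and column cannot be told apart, also between these 4 treatments and the other 2. Of the other 2, which shared columns with vehicle, topotecan/D5W had -0.46 and -0.37 at 6 h and oxaliplatin/NaCl -0.24 and -0.21.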

How the data were processed

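Marrow RNA from each of 93 rats was hybridised to its own Affymetrix rat array. The deposited values are log2 signals, made by the authors with robust multi-array averaging (RMA, also named in the submitters' processing notes) and a filter that keeps probe sets whose probes vary together over the arrays, so a gene without a row is not analysed here. The authors left out 1 outlying array and 2 RNA samples of low quality. Array signal has no read depth, and the number of rats limits the precision.

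Of 12560 probe sets, 28 controls were left out and 12532 tested with limma 3.58.1 in R 4.3.3, in 1 linear model for each vehicle group and its 3 treatments. Order of infusion was tested in a model of all 8 groups. The Benjamini-Hochberg adjustment ran over all probe sets of a comparison, with a call at adjusted p under 0.01. Each rat is a separate animal. Alternatives were a second quantile normalization, centring arrays, pooled vehicles, 1 model of all groups, robust trended variances, other thresholds, the animal set as a block and leaving out each rat. The model was tested on simulated data.

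The members and lists were chosen with earlier results of these data known. Values rat by rat are given for the member with the largest and the one with the smallest mean change in each complex and time among those called in at least 3 treatments, for members called alike in all 6, and for tissue isoforms, with some chosen after seeing values. Up to 4 called genes with the largest mean absolute change were named from each other list.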

Additional observations from a re-analysis of the deposited data

Results flagged for a closer look

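Single rats lay far from the other 3 of their group in 13 of 168 sets of 4 rats (7.74%), where chance alone gives about 1 set in 20. For Cox6a2 these were rat 25 of topotecan/D5W at 1 h (6.91), rat 44 of oxaliplatin/NaCl at 1 h (7.65), rat 52 of topotecan/oxaliplatin at 6 h (9.26) and rat 69 of oxaliplatin/topotecan at 6 h (6.87). For Cox8b they were rat 8 of NaCl/D5W at 1 h (6.16), rat 52 again (8.63) and rat 90 of D5W/topotecan at 24 h (6.75). In the median of complex V relative to vehicle they were rat 12 of NaCl/D5W at 24 h (-0.03), rat 28 of topotecan/D5W at 6 h (-0.51) and rat 78 of NaCl/oxaliplatin at 24 h (-0.42). The others were the complex II median of rat 42 of oxaliplatin/NaCl at 24 h (-0.46), the complex III median of rat 50 of topotecan/oxaliplatin at 1 h (-0.38) and the complex IV median of rat 49 of the same group (0.00).

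Effects differed between times or orders by a limma test of the difference. Between 1 and 6 h this held for 22 members in topotecan/D5W (10.5% of all probe sets moved down), 48 in D5W/topotecan (13.9%) and 9 in NaCl/oxaliplatin (2.98%). It held for 49 in oxaliplatin/topotecan (11.5%), and for 18 in topotecan/oxaliplatin (9.36% of all down and 17.4% up). Between 1 and 24 h it held for 21 members in topotecan/D5W (21.7% of all probe sets up and 11.9% down) and 21 in topotecan/oxaliplatin (28.2% up and 18.5% down). For both, the count was no larger than the shares of all probe sets together. It held for 14 in D5W/topotecan (12.1% of all down), 35 in oxaliplatin/NaCl (15.2%), 46 in NaCl/oxaliplatin (22.1%) and 57 in oxaliplatin/topotecan (19.7%). Between the 2 orders at 1 h it held for 19 members with topotecan alone (7.33% of all probe sets lower) and 14 with the combination (4.76%).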

How the results depend on the processing

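Of the counts of members past the threshold, 726 values under an alternative stayed within 1.5 times the main count and 129 did not. Of 89 comparisons of single named members, 1216 values stayed on their side of the threshold, 28 lost it and none reversed, with 15 of the 28 under centring. Of the values that stayed, 89 came from relabelling genes with current RefSeq symbols, which left the fit unchanged. Another 89 came from the looser threshold of 0.05. Neither setting could lose a call, and the relabelling could not move a count. A further 88 were the lowest of the leave-one-out changes. For a member called lower that is the change furthest from 0, which puts the call to little test. No paired analysis was possible because each rat gave 1 array and animal numbers are not shared between groups. The cause of the moves was not tested, and 3 or 4 rats a group limit what can be told apart.

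With a fold over 2 required, the counts were 1 for NaCl/oxaliplatin from 1 to 24 h, 2 for oxaliplatin/topotecan from 1 to 24 h and against vehicle at 24 h, 1 for topotecan/oxaliplatin against NaCl/oxaliplatin at 1 h, and 0 for every other comparison with a call. At adjusted p under 0.05 they were 22, 53, 3, 35, 38 and 30 for the time changes of D5W/topotecan (24 h), oxaliplatin/NaCl (24 and 6 h), NaCl/oxaliplatin, topotecan/D5W and topotecan/oxaliplatin (6 h), 29 and 33 for the order of topotecan and of the combination at 1 h, 32, 6 and 19 for oxaliplatin/NaCl at 6 h, oxaliplatin/topotecan at 1 h and topotecan/D5W at 24 h against vehicle, 3, 10 and 22 for D5W/topotecan against oxaliplatin/NaCl at 1, 6 and 24 h, 36 for topotecan/D5W against NaCl/oxaliplatin at 6 h, 39 and 5 for oxaliplatin/topotecan against oxaliplatin/NaCl at 6 and 24 h, and 1 for it against D5W/topotecan at 6 h.

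With all 8 groups in 1 model, D5W/topotecan against oxaliplatin/NaCl gave 3, 10 and 17 at 1, 6 and 24 h, oxaliplatin/NaCl 29 at 6 h and 2 for its change from 1 to 6 h, and oxaliplatin/topotecan 32 against oxaliplatin/NaCl and 1 against D5W/topotecan at 6 h. With vehicles pooled the same gave 3, 10 and 14, 37 and 3, and 31 and 1, with 22 for NaCl/oxaliplatin from 1 to 6 h, 39 for the order of the combination at 1 h, 9 for oxaliplatin/topotecan at 1 h and 21 for topotecan/D5W at 24 h.

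With arrays centred, the counts against vehicle at 1 h were 20, 5, 18 and 26 in topotecan/D5W, D5W/topotecan, topotecan/oxaliplatin and oxaliplatin/topotecan. The time changes were 26 in D5W/topotecan at 24 h, and 24 and 31 in NaCl/oxaliplatin and topotecan/oxaliplatin at 6 h, and the order of the combination at 1 h gave 27. D5W/topotecan against oxaliplatin/NaCl gave 2, 0 and 5 at 1, 6 and 24 h, oxaliplatin/topotecan against oxaliplatin/NaCl 22, 3 and 1 and against D5W/topotecan 13 at 24 h, topotecan/oxaliplatin against NaCl/oxaliplatin 24 and 13 at 1 and 6 h, and topotecan/D5W against NaCl/oxaliplatin 11 at 6 h. A second quantile normalization gave 2 for D5W/topotecan against oxaliplatin/NaCl at 1 h, 17 for NaCl/oxaliplatin from 1 to 6 h and 11 for oxaliplatin/topotecan against oxaliplatin/NaCl at 6 h. Without the 3 arrays high in muscle genes, oxaliplatin/NaCl from 1 to 24 h gave 15, oxaliplatin/topotecan against oxaliplatin/NaCl at 24 h 1, and D5W/topotecan against oxaliplatin/NaCl 1 and 3 at 6 and 24 h. Without the dimmest probe sets, oxaliplatin/topotecan against oxaliplatin/NaCl at 24 h gave 1. Robust trended variances gave 14 and 1 for NaCl/oxaliplatin and oxaliplatin/NaCl from 1 to 6 h.

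Leaving out each rat in turn, the ranges against vehicle were 6 to 19 and 26 to 41 for oxaliplatin/NaCl and NaCl/oxaliplatin at 6 h, and 7 to 20 and 12 to 33 for topotecan/D5W and D5W/topotecan at 24 h. For time changes they were 12 to 26, 0 to 2 and 5 to 14 for topotecan/D5W, oxaliplatin/NaCl and NaCl/oxaliplatin at 6 h, and 6 to 22 and 16 to 43 for D5W/topotecan and oxaliplatin/NaCl at 24 h. Between treatments they were 17 to 33 and 1 to 3 for topotecan/oxaliplatin against NaCl/oxaliplatin at 6 and 24 h, 19 to 42 against topotecan/D5W at 24 h, 1 to 3, 2 to 18 and 1 to 3 for oxaliplatin/topotecan against oxaliplatin/NaCl at 1, 6 and 24 h, 19 to 48 against D5W/topotecan at 24 h, 14 to 35 for topotecan/D5W against NaCl/oxaliplatin at 24 h, and 0 to 2 and 3 to 12 for D5W/topotecan against oxaliplatin/NaCl at 6 and 24 h.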
